A study of Mus musculus with 9 samples.

Results

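The genes of glycolysis, of the pentose phosphate pathway and of the response to low oxygen were followed in mouse skin after imiquimod, with and without oral vanillin. The 36 genes were taken by name from a fixed list of enzymes, transporters, oxygen sensors and hypoxia targets, and a probe belonged to a gene when its annotated symbol, or an older synonym that is no other gene's current symbol, matched. The array's annotation writes symbols in capitals (SLC2A1, HK2, PFKFB4), and pyruvate kinase stood there as PKM2. In all, 30 of the 36 genes were found, on 37 of the 26423 probes, among 17742 named genes. Gapdh, Pgk1, Eno1, Ldha, Ldhb and G6pdx had no probe under their name or a synonym and were not analysed here. A gene with several probes, which applied to 6 of the 30, was read from its brightest probe over all arrays.

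The study compared 3 groups of 3 arrays, all from female BALB/c mice. Vanillin skin came from mice that received imiquimod on the back skin and 100 mg/kg of vanillin, the aroma compound of vanilla, by mouth. IMQ skin came from mice given imiquimod alone, a toll-like receptor 7 agonist used to induce psoriasis-like inflammation. Mock skin came from mice given Vaseline cream, and all groups were treated for 7 days on shaved back skin. No group received vanillin without imiquimod. Whether each array of a group stands for its own mouse is not said in the labels, and p-values then cover just the array-to-array spread, which may be technical.

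The labels name skin as the tissue, while the extraction text names muscle. All 14 keratinocyte markers were on the array, with a median intensity percentile of 99.1 among all probes, and 9 of 15 skeletal muscle markers were, with a median percentile of 98.8. The 9 arrays had median intensities between 629 and 631. Array correlations within a group were at least 0.984, and the highest between groups was 0.980. The median SD of a probe on the log2 scale was 0.170 in vanillin, 0.0792 in IMQ and 0.158 in Mock skin, so IMQ arrays differed least among themselves. In tissue RNA, fewer cells of a type and less RNA per cell cannot be told apart.

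Glycolysis breaks glucose down to pyruvate in the cytosol, and pyruvate then enters mitochondria or becomes lactate, which leaves the cell through monocarboxylate transporters. The pentose phosphate pathway branches off after the first phosphorylation of glucose and provides NADPH and ribose. The hypoxia-inducible factors are transcription factors whose alpha subunits are marked for degradation by oxygen-dependent prolyl hydroxylases. When oxygen is low they raise many glycolytic genes and targets such as Vegfa and Car9. Keratinocytes take up glucose mainly through the transporter GLUT1, and epidermis is known for a high rate of glycolysis.

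The comparison of IMQ with Mock skin asked how imiquimod changed these genes. The glucose transporter gene Slc2a1 rose 2.88-fold, the oxygen sensor Egln3 2.50-fold and the hexokinase Hk1 1.94-fold. The pyruvate dehydrogenase kinase Pdk4 fell to 0.289 of its Mock level and the oxygen sensor Egln1 to 0.457. Hk1 and Egln1 each had a dimmer probe that was not called, at log2 changes of -0.25 and -0.17. Of the 30 genes 11 were called higher in IMQ (36.7%, beside 24.3% of all 17742 genes), 6 lower (20.0%, beside 31.6%) and 13 were not called. A call here is a Benjamini-Hochberg adjusted p under 0.05 over all probes in limma. The median log2 change of the 30 was 0.13, against -0.06 over all genes.

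The comparison of vanillin with IMQ skin asked how these genes differ once oral vanillin is added to imiquimod. Pdk4 rose 3.02-fold with vanillin and the muscle phosphofructokinase Pfkm 1.78-fold. The lactate transporter Slc16a1 fell to 0.531 and Egln3 to 0.645 of their IMQ levels. Of the 30 genes 8 were called higher (26.7%, beside 26.2% of all genes), 4 lower (13.3%, beside 16.6%) and 18 were not called, so the shares lay near those of all genes. The median log2 change was 0.07, against 0.06 over all genes, and was 0.04 without IMQ replicate 3 or vanillin replicate 2 and 0.13 without vanillin replicate 3. Refitting without each of the 9 arrays in turn cost 6 of the 12 calls at least once, those of Aldoc, Ankrd37, Ndrg1, Pfkfb3, Pfkfb4 and Pfkp. The 8 higher calls became 4 without IMQ replicate 1, 5 without IMQ replicate 2, 4 without IMQ replicate 3 and 4 without vanillin replicate 2. The 4 lower calls became 2 without IMQ replicate 1, IMQ replicate 3 or vanillin replicate 1.

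Vanillin with Mock skin was compared to see which of these genes stood apart from Mock skin when both agents had been given. Slc2a1 was higher in vanillin skin by 1.58 on the log2 scale, Hk1 2.15-fold and Pfkfb4 1.84-fold, and Egln1 stood at 0.607 of its Mock level. The dimmer probes of Hk1 and Egln1 were not called, at log2 changes of 0.06 and -0.05. Here 11 of the 30 genes were called higher (36.7%, beside 13.4% of all genes), 4 lower (13.3%, beside 15.9%) and 15 were not called. The median log2 change was 0.21, against 0.01 over all genes. Without Mock replicate 2 the 4 lower calls became 2 and the median became 0.12, and without vanillin replicate 2 the median was 0.14. Each pair of comparisons shares the arrays of 1 group, so their changes are not independent of each other.

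**Figure D1:**
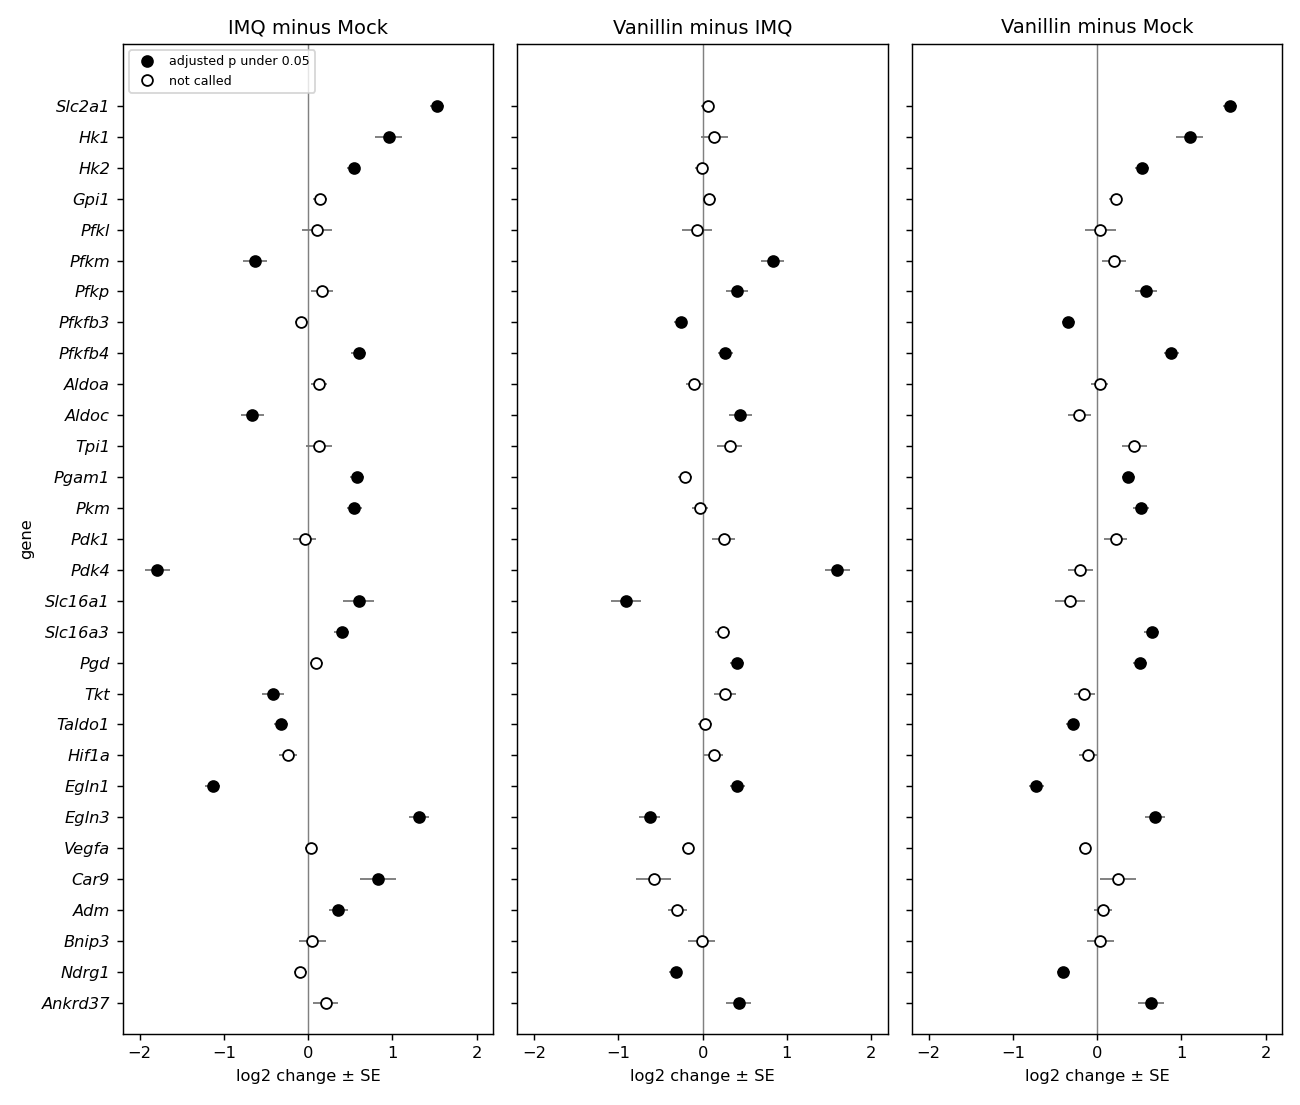
The log2 change of the 30 genes (horizontal axis, ± SE from the fit) is plotted for IMQ minus Mock, vanillin minus IMQ and vanillin minus Mock, with filled points at an adjusted p under 0.05. Slc2a1 lies at 1.53 in the first panel, 0.06 in the second and 1.58 in the third, while Pdk4 lies at -1.79, 1.60 and -0.20.

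The letters ACGTG and GCGTG form the core of the hypoxia response element, which the hypoxia-inducible factors bind, so promoter windows of members that rose and of members that fell are shown. RefSeq promoters of the mouse assembly GRCm38.p6, from 250 bases before to 50 after an annotated start, matched 29 of the 30 genes with 41 windows. The sequences below read 5′ to 3′ on the strand of the gene, with ACGTG or GCGTG on either strand in capitals (a match on the opposite strand reads CACGT or CACGC). The first 4 genes rose in IMQ skin and the last 2 fell.
Slc2a1 (chr4:119108495-119108794, plus strand): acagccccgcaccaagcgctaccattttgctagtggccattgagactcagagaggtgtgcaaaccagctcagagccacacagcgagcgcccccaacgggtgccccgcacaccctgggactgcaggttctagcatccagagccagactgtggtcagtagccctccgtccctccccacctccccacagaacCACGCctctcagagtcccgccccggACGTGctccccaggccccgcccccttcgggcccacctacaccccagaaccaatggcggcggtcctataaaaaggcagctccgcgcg
Hk2 (chr6:82774405-82774704, minus strand): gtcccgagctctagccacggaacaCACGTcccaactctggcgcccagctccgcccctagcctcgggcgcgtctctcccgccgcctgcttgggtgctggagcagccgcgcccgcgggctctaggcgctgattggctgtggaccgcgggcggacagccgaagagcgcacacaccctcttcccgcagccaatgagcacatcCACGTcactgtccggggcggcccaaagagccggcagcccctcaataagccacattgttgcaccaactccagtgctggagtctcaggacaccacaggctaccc
Slc16a3 (chr11:120948817-120949116, plus strand): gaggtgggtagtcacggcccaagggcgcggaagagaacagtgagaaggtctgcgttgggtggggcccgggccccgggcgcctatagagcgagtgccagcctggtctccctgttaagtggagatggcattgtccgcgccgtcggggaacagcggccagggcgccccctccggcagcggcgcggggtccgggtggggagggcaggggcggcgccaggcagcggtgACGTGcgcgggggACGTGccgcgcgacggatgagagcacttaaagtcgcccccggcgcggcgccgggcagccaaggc
Egln3 (chr12:54203825-54204124, minus strand): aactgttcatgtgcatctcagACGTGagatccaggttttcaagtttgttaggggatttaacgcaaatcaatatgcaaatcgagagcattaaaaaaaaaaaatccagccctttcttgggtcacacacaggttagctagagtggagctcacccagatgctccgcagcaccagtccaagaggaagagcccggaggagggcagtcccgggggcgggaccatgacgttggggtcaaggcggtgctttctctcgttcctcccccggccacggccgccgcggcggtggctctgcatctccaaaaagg
Egln1 (chr8:124949205-124949504, minus strand): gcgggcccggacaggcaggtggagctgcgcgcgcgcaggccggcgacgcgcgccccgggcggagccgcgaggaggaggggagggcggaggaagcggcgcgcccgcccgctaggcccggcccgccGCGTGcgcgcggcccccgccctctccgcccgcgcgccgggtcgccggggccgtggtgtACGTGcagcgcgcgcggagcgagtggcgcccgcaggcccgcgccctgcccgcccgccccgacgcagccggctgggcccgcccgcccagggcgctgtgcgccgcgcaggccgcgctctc
Pdk4 (chr6:5496229-5496528, minus strand): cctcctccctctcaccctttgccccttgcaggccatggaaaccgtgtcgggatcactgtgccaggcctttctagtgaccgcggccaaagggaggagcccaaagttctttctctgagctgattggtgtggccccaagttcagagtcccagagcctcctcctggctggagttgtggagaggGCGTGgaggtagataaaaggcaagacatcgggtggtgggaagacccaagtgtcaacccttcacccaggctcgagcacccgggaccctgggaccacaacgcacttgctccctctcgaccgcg

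In Slc2a1 these letters begin at -61 and -36 relative to the start, in Hk2 at -226 and -52, and in Slc16a3 at -27 and -14. Egln3 holds 1 match, at -229, Egln1 has matches at -126 and -68, and Pdk4 has 1 at -71. Counted per gene, 27 of 29 held at least 1 match in at least 1 window, the exceptions being Gpi1 and Tpi1. All 11 genes called higher in IMQ and all 6 called lower held a match, as did 10 of 12 genes not called that had a window. These letters thus stood in windows of rising, falling and uncalled members alike. Over windows, ACGTG occurred in 51.2% of the 41 member windows and 19.6% of all 32851 windows, GCGTG in 53.7% and 32.4%, and either in 78.0% and 43.8%. The palindrome CACGTG, which contains ACGTG, occurred in 12.2% and 7.15%. Both motifs contain a CG dinucleotide, of which the median window held 20 among members and 7 among all, and the part of this difference in the motif shares was not tested. A match of letters is a description and not a binding site.

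Of 4 genes of glucose uptake and its first steps, Slc2a1, Hk1 and Hk2 rose in IMQ skin, beside 24.3% of all genes called higher. None of the 4 was called between vanillin and IMQ skin. Slc2a1, which encodes GLUT1, had log2 intensities of 14.31, 14.37 and 14.48 in vanillin skin, 14.39, 14.36 and 14.24 in IMQ skin, and 12.79, 12.82 and 12.80 in Mock skin. The vanillin and IMQ arrays overlapped, and all 6 lay at least 1 log2 unit above every Mock array. Its log2 change was 1.53 ± 0.08 for IMQ against Mock (SE, adjusted p = 4.31e-06), 0.06 ± 0.08 for vanillin against IMQ (adjusted p = 0.597) and 1.58 ± 0.08 for vanillin against Mock (adjusted p = 4.14e-06). Of the hexokinases, which trap glucose in the cell, Hk2 read 15.17, 15.11 and 15.22 in vanillin, 15.12, 15.20 and 15.23 in IMQ and 14.61, 14.70 and 14.61 in Mock skin. Hk2 thus had the same order as Slc2a1 with a smaller step of 0.54 ± 0.08 for IMQ against Mock (adjusted p = 0.000541) and -0.01 ± 0.08 for vanillin against IMQ.

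Hk1, on its brighter probe, read 13.08, 13.52 and 13.16 in vanillin, 13.14, 13.13 and 13.07 in IMQ and 12.44, 12.11 and 11.90 in Mock skin. It rose by 0.96 ± 0.16 in IMQ against Mock (adjusted p = 0.00103) and by 1.10 ± 0.16 in vanillin against Mock (adjusted p = 0.00107), with no overlap in either. Its dimmer probe was not called, and with the mean of both probes these changes were 0.36 and 0.58, both called. Gpi1, which turns glucose 6-phosphate into fructose 6-phosphate, was not called in any comparison, at 0.14 ± 0.08 in IMQ against Mock and 0.22 ± 0.08 in vanillin against Mock.

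**Figure D2:**
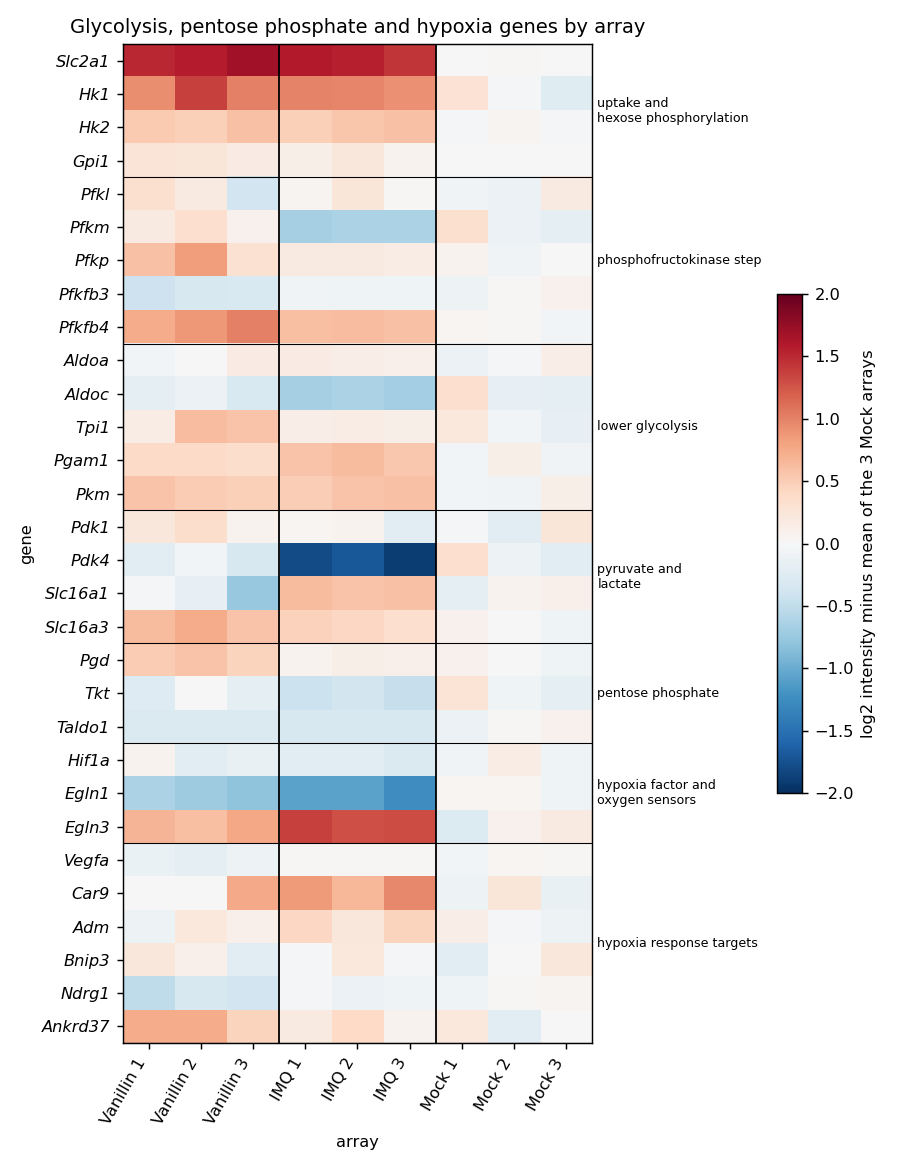
Each cell of the heat map is a gene's log2 intensity on 1 array minus the mean of the 3 Mock arrays, with arrays in columns (vanillin, IMQ, Mock) and the 30 genes in rows by role. Slc2a1, Hk1, Hk2, Pgam1 and Pkm are above Mock on all vanillin and IMQ arrays, and Pdk4 is low on the 3 IMQ arrays alone.

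At the phosphofructokinase step, which commits sugar to glycolysis, the genes went different ways. Pfkm, the muscle form of the enzyme, read 14.58, 14.74 and 14.49 in vanillin, 13.75, 13.78 and 13.78 in IMQ and 14.72, 14.29 and 14.21 in Mock skin. The IMQ arrays lay below all others, while vanillin and Mock arrays overlapped. Pfkm fell by 0.63 on the log2 scale in IMQ against Mock (SE 0.14, adjusted p = 0.00447), rose by 0.83 ± 0.14 in vanillin against IMQ (adjusted p = 0.00298) and read 0.20 ± 0.14 for vanillin against Mock (adjusted p = 0.339). Without Mock replicate 1, the highest Mock array, vanillin against Mock became 0.36 (adjusted p = 0.0235).

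The platelet form Pfkp, on a dim probe, read 8.20, 8.45 and 7.92 in vanillin, 7.79, 7.79 and 7.76 in IMQ and 7.69, 7.55 and 7.61 in Mock skin. It was higher in vanillin than in Mock skin by 0.58 ± 0.13 (adjusted p = 0.0103), and its change against IMQ was 0.41 ± 0.13 (adjusted p = 0.0328). Omitting any 1 of the 3 IMQ replicates or of vanillin replicates 1 and 2 ended that second call (adjusted p up to 0.0959), and the change was 0.28 without vanillin replicate 2. Pfkl, the liver form, was not called in any comparison, with changes from -0.07 to 0.11.

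Among the bifunctional enzymes that make or remove the phosphofructokinase activator fructose 2,6-bisphosphate, Pfkfb4 rose and Pfkfb3 fell. Pfkfb4 read 12.84, 12.97 and 13.11 in vanillin, 12.70, 12.72 and 12.69 in IMQ and 12.13, 12.12 and 12.04 in Mock skin. The 3 groups did not overlap, and the vanillin arrays were the highest. Its change was 0.60 ± 0.09 in IMQ against Mock (adjusted p = 0.000621), 0.88 ± 0.09 in vanillin against Mock (adjusted p = 0.000172) and 0.27 ± 0.09 in vanillin against IMQ (adjusted p = 0.0390). The last call ended when any IMQ replicate, Mock replicate 2 or vanillin replicate 2 or 3 was omitted (adjusted p up to 0.114), and with a replicate block (adjusted p = 0.0741).

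Pfkfb3 read 12.08, 12.17 and 12.18 in vanillin, 12.42, 12.40 and 12.40 in IMQ and 12.38, 12.51 and 12.57 in Mock skin. Every vanillin array lay below every IMQ and Mock array, and IMQ and Mock overlapped. It fell by 0.26 in vanillin against IMQ (SE 0.08, adjusted p = 0.0323) and by 0.34 in vanillin against Mock (SE 0.08, adjusted p = 0.0147). Without any one IMQ replicate, Mock replicate 2 or vanillin replicate 1 or 2 the call against IMQ was gone (adjusted p up to 0.105), as it was with a replicate block (adjusted p = 0.0561). The call against Mock was lost without Mock replicate 2 (adjusted p = 0.0530).

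Lower glycolysis, from the splitting of the sugar to pyruvate, gave 2 genes higher, 1 lower and 2 not called for IMQ against Mock. Of all genes 24.3% were higher and 31.6% lower in this comparison. Pgam1, the phosphoglycerate mutase of most tissues, rose by 0.58 ± 0.08 (adjusted p = 0.000465) and Pkm, the pyruvate kinase outside liver and red cells, by 0.55 ± 0.09 (adjusted p = 0.000785). Pgam1 read between 15.98 and 16.01 in vanillin, 16.17 and 16.25 in IMQ and 15.56 and 15.74 in Mock skin, so vanillin lay between the other groups. Pkm read 17.13, 17.08 and 17.04 in vanillin, 17.06, 17.14 and 17.15 in IMQ and 16.51, 16.50 and 16.69 in Mock skin, with vanillin and IMQ overlapping. For vanillin against IMQ neither was called, at -0.21 ± 0.08 (adjusted p = 0.0742) for Pgam1 and -0.03 ± 0.09 for Pkm, though the Pgam1 arrays of these groups did not overlap. Against Mock both were higher in vanillin skin, by 0.37 ± 0.08 (adjusted p = 0.00971, or 0.0554 when the IMQ arrays were not fitted) and 0.52 ± 0.09 (adjusted p = 0.00240).

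The aldolases differed. Aldoc, best known from brain, read 12.76, 12.84 and 12.64 in vanillin, 12.29, 12.32 and 12.27 in IMQ and 13.29, 12.79 and 12.77 in Mock skin. IMQ arrays were lowest, and Mock replicate 1 stood above the rest. Aldoc fell by 0.66 in IMQ against Mock (SE 0.14, adjusted p = 0.00423) and rose by 0.45 ± 0.14 in vanillin against IMQ (adjusted p = 0.0326), but not when any IMQ replicate or vanillin replicate 1 or 2 was omitted (adjusted p up to 0.0942). Aldoa, the main aldolase of muscle and many other tissues, read 17.08, 17.13 and 17.31 in vanillin, 17.30, 17.27 and 17.24 in IMQ and 17.02, 17.12 and 17.28 in Mock skin. All its groups overlapped and it was not called in any comparison, on a probe near the top of the intensity range (percentile 99.8). Tpi1, triosephosphate isomerase, read 0.44 ± 0.15 for vanillin against Mock (adjusted p = 0.0534), and 0.60 without vanillin replicate 1 (adjusted p = 0.0111) or 0.55 without Mock replicate 1 (0.0270).

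Around pyruvate, Pdk4 had the largest change of the 30 genes in both IMQ against Mock and vanillin against IMQ. Pdk4 encodes a kinase that shuts pyruvate dehydrogenase and so spares glucose when fat is burned, and it is prominent in muscle. It read 12.41, 12.58 and 12.31 in vanillin, 10.84, 10.94 and 10.74 in IMQ and 12.97, 12.53 and 12.40 in Mock skin. All IMQ arrays were over 1 log2 unit below all others, and vanillin and Mock overlapped. It fell by 1.79 in IMQ against Mock (SE 0.15, adjusted p = 3.17e-05), rose by 1.60 ± 0.15 in vanillin against IMQ (adjusted p = 0.000589) and read -0.20 ± 0.15 for vanillin against Mock (adjusted p = 0.383).

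Its paralog Pdk1, a hypoxia target in many cells, read 9.43, 9.55 and 9.26 in vanillin, 9.23, 9.26 and 8.99 in IMQ and 9.17, 8.98 and 9.44 in Mock skin. The groups overlapped, and it was not called in any comparison (adjusted p = 0.848, 0.181 and 0.304).

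The lactate transporters also parted. Slc16a1 (MCT1) read 7.65, 7.54 and 6.94 in vanillin, 8.33, 8.26 and 8.28 in IMQ and 7.52, 7.77 and 7.80 in Mock skin. IMQ arrays were the highest on this dim probe, and vanillin and Mock overlapped. It rose by 0.60 ± 0.18 in IMQ against Mock (adjusted p = 0.0194), a call lost without IMQ replicate 1, IMQ replicate 3 or Mock replicate 1 (adjusted p up to 0.0674), and fell by 0.91 in vanillin against IMQ (SE 0.18, adjusted p = 0.00507).

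Slc16a3 (MCT4), the exporter of highly glycolytic cells, read 10.34, 10.46 and 10.28 in vanillin, 10.17, 10.13 and 10.05 in IMQ and 9.80, 9.71 and 9.63 in Mock skin. The 3 groups did not overlap, in the order vanillin, IMQ, Mock from high to low. Its change was 0.40 ± 0.09 in IMQ against Mock (adjusted p = 0.00436) and 0.65 ± 0.09 in vanillin against Mock (adjusted p = 0.000764). For vanillin against IMQ it was 0.24 ± 0.09 and not called (adjusted p = 0.0514), but called without Mock replicate 1 (0.0339) or vanillin replicate 3 (0.0323) and under 5 other settings (adjusted p from 0.0124 to 0.0493). Slc16a3 has a pair of ACGTG matches close to its start. The Slc16a1 window holds 3 ACGTG and 2 GCGTG matches, where 1 palindrome CACGTG counts as an ACGTG match on each strand.

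**Figure D3:**
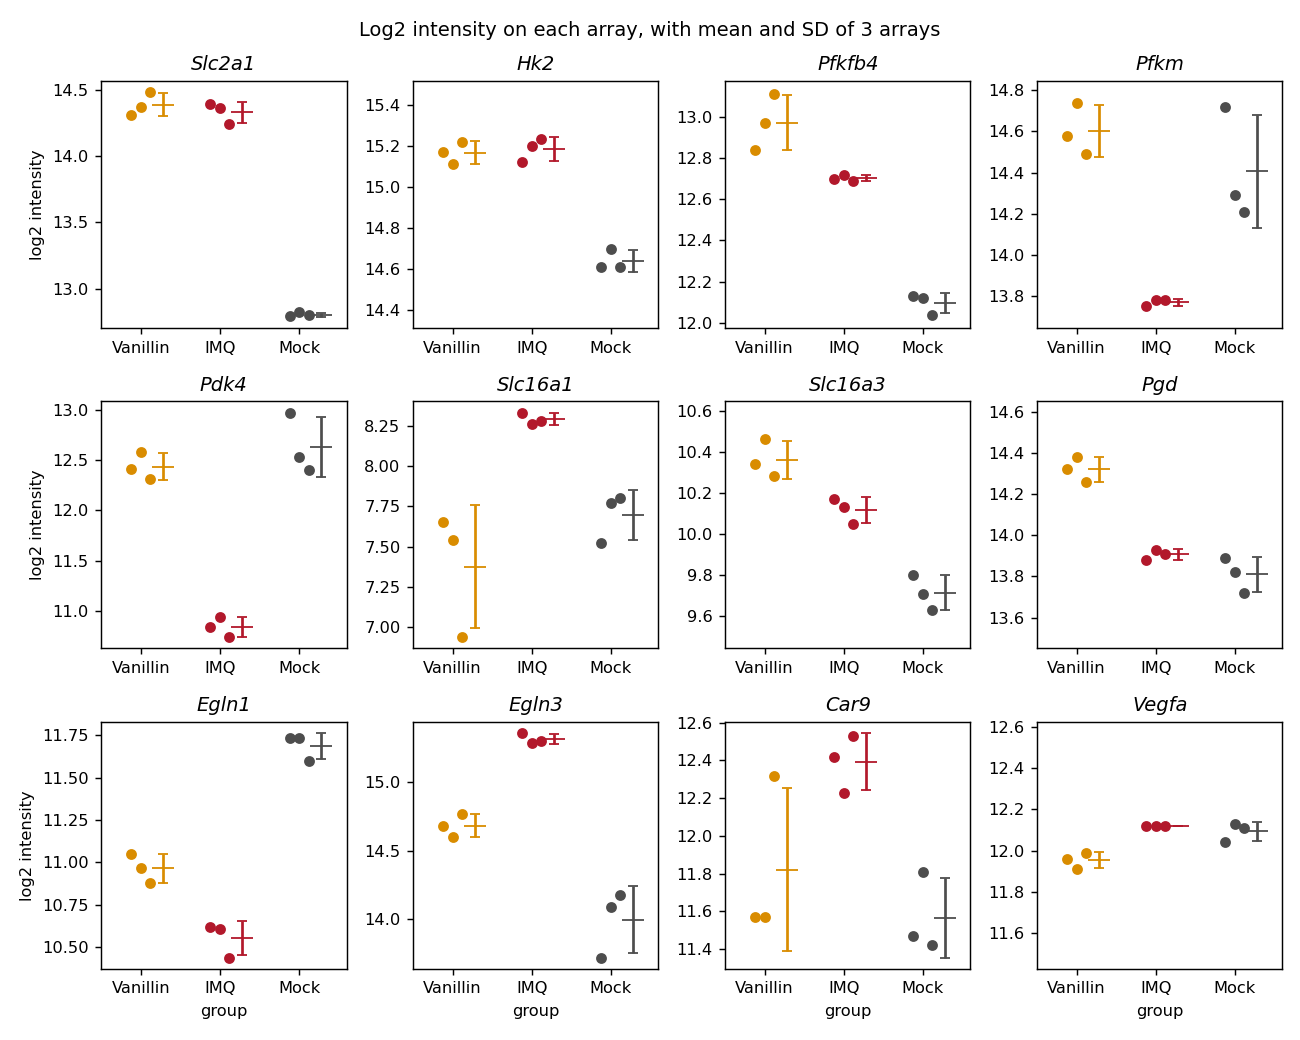
Log2 intensity (vertical axis, a range of its own in each panel) is shown on each array for 12 genes in vanillin, IMQ and Mock skin, with the mean and SD of 3 arrays beside the points. Slc2a1 and Hk2 stand at Mock level in neither treated group, whereas Pfkm and Pdk4 of vanillin skin overlap Mock, and Pgd is high in vanillin skin alone.

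In the pentose phosphate pathway the oxidative enzyme and the sugar-rearranging enzymes differed. Pgd, which yields NADPH, read 14.32, 14.38 and 14.26 in vanillin, 13.88, 13.93 and 13.91 in IMQ and 13.89, 13.82 and 13.72 in Mock skin. All vanillin arrays lay above all others, and IMQ and Mock overlapped. Pgd was higher in vanillin than in IMQ skin by 0.41 ± 0.08 (adjusted p = 0.00567) and than in Mock skin by 0.51 ± 0.08 (adjusted p = 0.00199), with 0.10 ± 0.08 for IMQ against Mock (adjusted p = 0.331).

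Taldo1 (transaldolase) read 16.04, 16.05 and 16.04 in vanillin, 16.02, 16.01 and 16.01 in IMQ and 16.22, 16.36 and 16.42 in Mock skin. Both treated groups lay below Mock and close together. It fell by 0.32 in IMQ against Mock (SE 0.08, adjusted p = 0.00920) and by 0.29 in vanillin against Mock (SE 0.08, adjusted p = 0.0268). The second call did not hold in 7 of the 9 refits that omit an array, all but those without Mock replicate 1 or vanillin replicate 3 (adjusted p up to 0.0846), nor with a replicate block (adjusted p = 0.0605).

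Tkt (transketolase) read 16.63, 16.88 and 16.70 in vanillin, 16.45, 16.52 and 16.43 in IMQ and 17.15, 16.79 and 16.71 in Mock skin. IMQ arrays were the lowest, and vanillin and Mock overlapped. It fell by 0.42 in IMQ against Mock (SE 0.13, adjusted p = 0.0221), a call lost without IMQ replicate 1 (0.0662) or IMQ replicate 3 (0.0701). For vanillin against IMQ it read 0.27 ± 0.13 (adjusted p = 0.122), called without Mock replicate 1 (0.0384).

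The oxygen sensors, prolyl hydroxylases that mark hypoxia-inducible factor for degradation, moved in opposite directions. Egln3 (PHD3) read 14.68, 14.60 and 14.77 in vanillin, 15.36, 15.29 and 15.30 in IMQ and 13.72, 14.09 and 14.18 in Mock skin. The groups did not overlap, with vanillin between IMQ and Mock. Egln3 rose by 1.32 ± 0.12 in IMQ against Mock (adjusted p = 5.24e-05), fell by 0.63 in vanillin against IMQ (SE 0.12, adjusted p = 0.00517) and was 0.69 ± 0.12 above Mock in vanillin skin (adjusted p = 0.00347).

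Egln1 (PHD2), the main oxygen sensor of normal tissue, read 11.05, 10.97 and 10.88 in vanillin, 10.62, 10.61 and 10.44 in IMQ and 11.73, 11.73 and 11.60 in Mock skin. Here too vanillin lay between the other groups without overlap, but the order was the reverse of that of Egln3. Egln1 fell by 1.13 in IMQ against Mock (SE 0.09, adjusted p = 2.66e-05) and rose by 0.41 ± 0.09 in vanillin against IMQ (adjusted p = 0.00888). In vanillin against Mock it fell by 0.72 (SE 0.09, adjusted p = 0.000569). Egln1 has a second, dimmer probe, which was not called (-0.17 ± 0.12 in IMQ against Mock), and with the mean of both probes its changes were -0.65, 0.26 and -0.39 in the same order of comparisons, all called. The promoter windows of both genes hold a hypoxia response core, as printed above.

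Hif1a, which encodes the alpha subunit that these enzymes act on, gave different readings on its 3 probes. The brightest read 14.91, 14.60 and 14.68 in vanillin, 14.61, 14.62 and 14.55 in IMQ and 14.77, 14.98 and 14.75 in Mock skin. On it no comparison was called, with -0.24 ± 0.11 for IMQ against Mock (adjusted p = 0.0912). The second brightest read 11.79, 11.73 and 11.87 in vanillin, 11.57, 11.57 and 11.46 in IMQ and 10.90, 11.08 and 11.14 in Mock skin. Its groups did not overlap, and it rose by 0.49 ± 0.09 in IMQ against Mock (adjusted p = 0.00205), by 0.26 ± 0.09 in vanillin against IMQ (adjusted p = 0.0485) and by 0.76 ± 0.09 in vanillin against Mock (adjusted p = 0.000445). The dimmest was called for vanillin against IMQ only, at 0.46 ± 0.14 (adjusted p = 0.0259). No direction is therefore given for Hif1a as a gene, and these are transcript levels, while the factor is controlled mainly at the protein.

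Of 6 targets of the hypoxia response 2 were called higher, 0 lower and 4 not in IMQ against Mock, where 24.3% of all genes were higher and 31.6% lower. In vanillin against IMQ 1 was higher, 1 lower and 4 not, where 26.2% of all genes were higher and 16.6% lower. The lower call is that of Ndrg1 on its brighter probe. Its other probe was called lower in IMQ against Mock (-0.85 ± 0.12) and higher in vanillin against IMQ (0.35 ± 0.12). Car9, a surface carbonic anhydrase often used as a hypoxia marker, read 11.57, 11.57 and 12.32 in vanillin, 12.42, 12.23 and 12.53 in IMQ and 11.47, 11.81 and 11.42 in Mock skin. All IMQ arrays stood above all Mock arrays, while vanillin replicate 3 was at IMQ level and the other two were at Mock level. Car9 rose by 0.83 ± 0.21 in IMQ against Mock (adjusted p = 0.00928). For vanillin against IMQ it read -0.58 ± 0.21 (adjusted p = 0.0533), and -0.83 without vanillin replicate 3 (adjusted p = 0.00262). It was called under 4 other settings (adjusted p from 0.000931 to 0.0474).

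Adm, the vasodilator adrenomedullin, read 10.10, 10.41 and 10.31 in vanillin, 10.62, 10.44 and 10.65 in IMQ and 10.34, 10.18 and 10.10 in Mock skin, with IMQ highest. It rose by 0.36 ± 0.11 in IMQ against Mock (adjusted p = 0.0256), a call lost without IMQ replicate 1, IMQ replicate 3, Mock replicate 2 or Mock replicate 3 (adjusted p up to 0.0926) and with a replicate block (0.0553). Ankrd37, a hypoxia-induced ankyrin repeat gene, read 10.17, 10.18 and 9.88 in vanillin, 9.61, 9.83 and 9.50 in IMQ and 9.65, 9.21 and 9.44 in Mock skin, the vanillin arrays being highest. It was 0.64 ± 0.15 above Mock (adjusted p = 0.0112) and 0.43 ± 0.15 above IMQ in vanillin skin (adjusted p = 0.0433). Omitting IMQ replicate 1 or 3, Mock replicate 3 or vanillin replicate 1 or 2 ended the call against IMQ (adjusted p up to 0.146), as did a replicate block (adjusted p = 0.0570).

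Vegfa, the growth factor for blood vessels that psoriatic epidermis is known to overproduce, read 11.96, 11.91 and 11.99 in vanillin, 12.12, 12.12 and 12.12 in IMQ and 12.04, 12.13 and 12.11 in Mock skin. Vanillin arrays were the lowest, and IMQ and Mock overlapped. It was not called, with 0.03 ± 0.07 for IMQ against Mock (adjusted p = 0.784), -0.17 ± 0.07 for vanillin against IMQ (adjusted p = 0.102) and -0.14 ± 0.07 for vanillin against Mock (adjusted p = 0.210). Bnip3, a mitophagy receptor, was not called either, with changes of 0.05, -0.01 and 0.04 on a probe below the median intensity.

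Ndrg1, a differentiation and stress gene, gave opposite calls on its pair of probes of similar brightness (percentiles 93.3 and 91.9). The brighter read -0.09 ± 0.08 for IMQ against Mock (adjusted p = 0.419) and -0.32 ± 0.08 for vanillin against IMQ (adjusted p = 0.0172), a call that ended without IMQ replicate 1, IMQ replicate 3 or vanillin replicate 1 (adjusted p up to 0.0735). The other read -0.85 ± 0.12 (adjusted p = 0.000424) and 0.35 ± 0.12 (adjusted p = 0.0430). Against Mock both were lower in vanillin skin, at -0.40 ± 0.08 and -0.50 ± 0.12. Hk1 and Egln1 each had a dimmer probe that was not called in any comparison, at -0.25 ± 0.11 (adjusted p = 0.0975) and -0.17 ± 0.12 (adjusted p = 0.262) for IMQ against Mock. The dim probe of Tkt read -0.31 ± 0.12 for IMQ against Mock (adjusted p = 0.0605) and was called lower in vanillin against Mock at -0.43 ± 0.12 (adjusted p = 0.0319), where the brighter probe was not called (adjusted p = 0.438). For Gpi1 neither probe was called in any comparison.

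**Figure D4:**
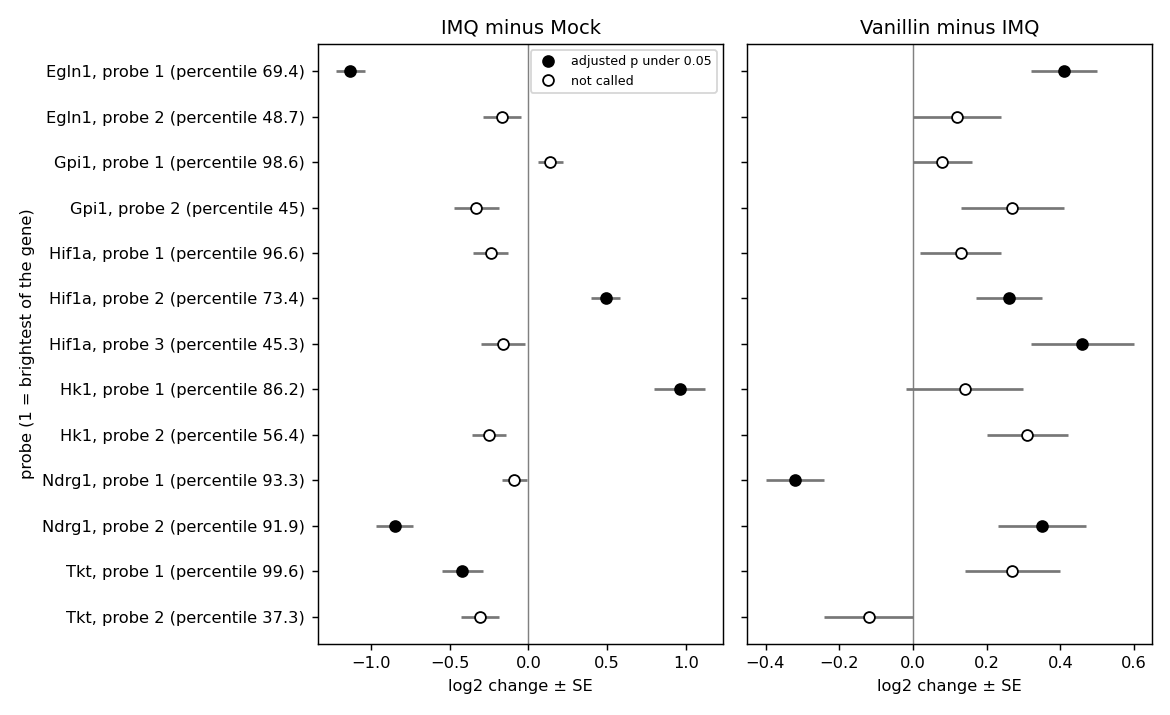
Log2 changes (± SE) are plotted for every probe of the 6 genes with more than 1 probe, for IMQ minus Mock and vanillin minus IMQ, with each probe's intensity percentile beside the gene. The Ndrg1 probes lie at -0.32 and 0.35 for vanillin minus IMQ, and the 3 Hif1a probes at -0.24, 0.49 and -0.16 for IMQ minus Mock.

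Skeletal muscle lies as a thin sheet beneath mouse skin, and most of its markers went down and up as Pfkm, Aldoc and Pdk4 did. Most adipocyte markers, given below, did so too, and both comparisons share the IMQ arrays. Of 15 muscle markers 9 were measured, all above the median intensity. For IMQ against Mock 0 were called higher, 6 lower and 3 not, with a median of -0.42, beside 24.3% and 31.6% of all genes. For vanillin against IMQ 7 were higher, 0 lower and 2 not, with a median of 0.48, beside 26.2% and 16.6%. Their summed intensity ran from 431594 to 449601 in vanillin, 336184 to 343387 in IMQ and 420184 to 459014 in Mock skin. The sarcomere gene Neb read -1.34 ± 0.11 in IMQ against Mock and 0.82 ± 0.11 in vanillin against IMQ, the creatine kinase Ckm -0.64 ± 0.08 and 0.48 ± 0.08, and the actinin Actn3 -0.70 ± 0.10 and 0.86 ± 0.10. The calcium-binding Pvalb read -0.79 ± 0.13 and 0.12 ± 0.13 (adjusted p = 0.485). Acta1 was called in neither comparison, at -0.03 ± 0.12 and -0.17 ± 0.12. For IMQ against Mock, Tnnc2 (-0.16 ± 0.08) and Tnni2 (-0.37 ± 0.16) were not called either. Among Mock arrays, Pfkm, Aldoc, Pdk4 and Tkt were each highest on replicate 1. The median offset of the muscle markers from the Mock mean was -0.03, 0.04 and -0.02 on Mock replicates 1, 2 and 3. The part of muscle, fat or other cell content in the changes of Pfkm, Aldoc, Pdk4 and Tkt was not tested.

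Markers of other cell types were read beside these genes. Among all genes, 24.3% were called higher and 31.6% lower in IMQ than in Mock skin. With vanillin added to imiquimod, 26.2% were called higher and 16.6% lower than in IMQ skin. The counts below are to be read beside these shares. Of 12 adipocyte markers 0 were called higher and 8 lower for IMQ against Mock (median -0.66), and 7 higher and 1 lower for vanillin against IMQ (median 0.31). Of 10 endothelial markers 0 were higher and 7 lower for IMQ against Mock, and 5 higher and 0 lower for vanillin against IMQ. Fibroblast markers gave 1 higher and 6 lower of 9, and then 3 higher and 0 lower. Neutrophil markers, of cells that rely on glycolysis, gave 4 higher and 3 lower of 11 for IMQ against Mock, and 8 higher and 0 lower for vanillin against IMQ, though 7 of the 11 probes were below the median intensity. Their summed intensity ran from 113705 to 126672 in vanillin, 127882 to 132033 in IMQ and 9236 to 10116 in Mock skin. S100a9 had a mean intensity of 109373 in vanillin, 122486 in IMQ and 2646 in Mock skin, and so made up most of the sum in vanillin and IMQ skin but not in Mock skin. S100a9 is also made by activated keratinocytes.

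Among 14 keratinocyte markers 5 were called higher, 5 lower and 4 not for IMQ against Mock (median 0.14), with Krt1 at 3.43 ± 0.12. Of all genes 24.3% were higher and 31.6% lower there, and 26.2% and 16.6% in vanillin against IMQ. Macrophage markers gave 4 higher and 4 lower of 10 in IMQ against Mock and 3 higher and 1 lower in vanillin against IMQ. Cell cycle genes gave 2 higher and 6 lower of 12, and then 4 higher and 1 lower, while only 2 of 8 red cell markers were measured. The part of any of these cell types in the changes of Slc2a1, Hk1, Hk2, Pgam1, Pkm and Slc16a3 was not tested.

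**Figure D5:**
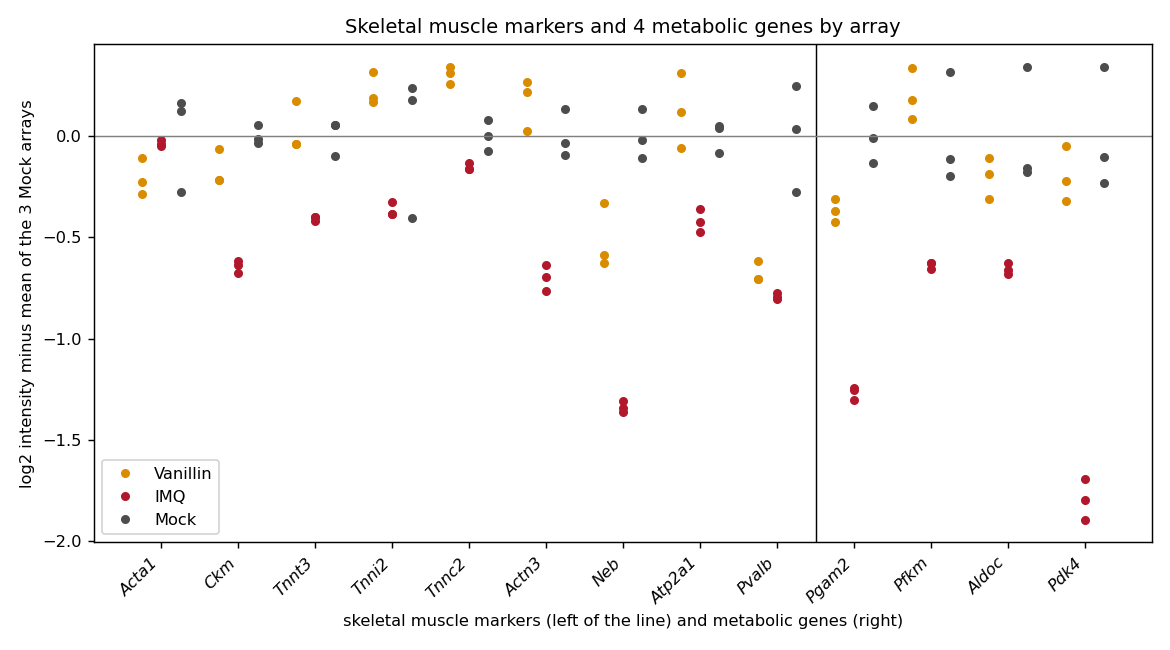
Log2 intensity minus the Mock mean (vertical axis) is shown on each array for the 9 measured skeletal muscle markers (left of the line) and for Pgam2, Pfkm, Aldoc and Pdk4 (right), with vanillin, IMQ and Mock arrays side by side. All of Pgam2, Pfkm, Aldoc and Pdk4 are lowest on the IMQ arrays, as are the markers Ckm, Tnnt3, Tnnc2, Actn3, Neb, Atp2a1 and Pvalb.

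Further genes of sugar metabolism were read from a wider list of 29, of which 25 were measured. For IMQ against Mock 6 were called higher, 12 lower and 7 not (median -0.17), beside 24.3% and 31.6% of all genes, and for vanillin against IMQ 11 higher, 2 lower and 12 not (median 0.13), beside 26.2% and 16.6%. For vanillin against Mock 4 were higher, 6 lower and 15 not, beside 13.4% and 15.9% of all genes. The muscle mutase Pgam2 fell by 1.27 in IMQ against Mock (SE 0.09, adjusted p = 1.67e-05) and rose by 0.90 ± 0.09 in vanillin against IMQ (adjusted p = 0.000707), unlike its paralog Pgam1, which rose in IMQ skin. Pgm1 changed by -1.55 ± 0.11 and 0.60 ± 0.11 in the same comparisons. The muscle fructose bisphosphatase gene Fbp2 rose by 1.40 ± 0.10 in IMQ against Mock (adjusted p = 1.28e-05), against the direction of the muscle markers, and Gpd2, of the glycerol phosphate shuttle, by 1.24 ± 0.08 (adjusted p = 1.02e-05). These last genes read 0.21 ± 0.10 and -0.08 ± 0.08 in vanillin against IMQ and were not called.

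All 11 further genes of the pentose phosphate pathway and ribose use were measured. For IMQ against Mock 1 was called higher, 6 lower and 4 not (median -0.29), and for vanillin against IMQ 5 higher, 1 lower and 5 not (median -0.06), beside the same shares of all genes. The sedoheptulose kinase Shpk fell by 0.96 in IMQ against Mock (SE 0.10, adjusted p = 7.31e-05) and read -0.10 ± 0.10 for vanillin against IMQ. H6pd, which makes NADPH in the endoplasmic reticulum, changed by -0.58 ± 0.11 and 0.66 ± 0.11, and the ribose phosphate kinase Prps2 by -0.59 ± 0.10 and 0.38 ± 0.10. Tktl2, on a dim probe, read 1.30 ± 0.16 and -0.91 ± 0.16. For vanillin against Mock 0 were higher, 1 lower and 10 not, beside 13.4% and 15.9% of all genes.

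Among 40 further genes of the hypoxia-inducible factor pathway 36 were measured. For IMQ against Mock 12 were called higher, 16 lower and 8 not (median -0.14), beside 24.3% and 31.6% of all genes. In vanillin against IMQ 8 were higher, 8 lower and 20 not (median -0.00), beside 26.2% and 16.6%, and for vanillin against Mock 7 higher, 11 lower and 18 not, beside 13.4% and 15.9%. Angptl4, an inhibitor of lipoprotein lipase, fell by 2.10 in IMQ against Mock (SE 0.12, adjusted p = 4.75e-06) and read -0.06 ± 0.12 for vanillin against IMQ. Fam162a, a hypoxia-induced mitochondrial protein, rose by 1.36 ± 0.09 (adjusted p = 1.23e-05), and the repressor Bhlhe40 by 1.21 ± 0.09 (adjusted p = 1.58e-05). Hif3a, on a dim probe, rose by 2.13 ± 0.17 in IMQ against Mock and fell by 1.57 in vanillin against IMQ (SE 0.17, adjusted p = 0.000876). Epas1, named after its value was seen because it encodes the HIF-2 alpha subunit, rose by 1.13 ± 0.15 in IMQ against Mock (adjusted p = 0.000298) and fell by 0.47 in vanillin against IMQ (SE 0.15, adjusted p = 0.0338). In each comparison genes of this list went in both directions, as all genes did.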

How the data were processed

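Per the labels' protocols, each array carried a single RNA, marked with the dye Cy5, and there were 3 arrays per group. The values are the linear intensities deposited by the authors for 26423 probes, and the submitters' processing notes name limma without a version. How arrays were scanned, background-corrected and filtered is not given in the sources used here. Array medians differed by 0.00496 log2 units, so intensities had been equalised and cannot show a change of total signal. The number of arrays limits the precision.

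Values under 1 were set to 1 and log2 was taken. A model with a coefficient per group was fitted to all 9 arrays for every probe with limma 3.58.1 under R 4.3.3, two-sided, with Benjamini-Hochberg adjustment over all probes in each comparison, and called at an adjusted p under 0.05. The procedure was tested on simulated data in which a probe had the same spread in all groups. In the real arrays the spread was lowest in IMQ skin, a setting the simulation did not cover. The annotation gave 20377 probes 1 symbol, 0 several and 6046 none; through a table of GRCm38.p6, used for names and promoters only, 18213 symbols were current, 2126 were synonyms and 38 were kept, and 2 probes annotated NLK and DRG1, older names of Gpi1 and Ndrg1 but current symbols of other genes, were left out.

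Members and lists were chosen with earlier results of these data known, so lists are described by counts and medians without a test. Values on every array were given for 20 named members, of which 17 were measured, and for the 8 largest changes per comparison among members called without overlap; up to 4 genes of smallest p could be named per further list. Correlations of deviations from group means ran from -0.265 to 0.222 between same-numbered arrays and from -0.18 to 0.261 between the others. With 3 arrays a group these values cannot settle whether replicate numbers pair the arrays, and the main fit used no pairing. Alternatives changed the normalization, dim-probe filter, offset, prior, weights, arrays in the fit, replicate block, threshold and probe rule, and left out each array in turn.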

Additional observations from a re-analysis of the deposited data

How the results depend on the processing

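With 1 of the 9 arrays left out, the genes called for IMQ against Mock were 9 to 11 higher and 5 to 6 lower, for vanillin against IMQ 4 to 10 higher and 2 to 5 lower, and for vanillin against Mock 11 to 13 higher and 2 to 4 lower. Median changes ran from 0.10 to 0.16, 0.04 to 0.13 and 0.12 to 0.25. The 17 calls for IMQ against Mock lost 3 (Adm, Slc16a1, Tkt), the 12 for vanillin against IMQ lost 6 and the 15 for vanillin against Mock lost 2 (Pfkfb3, Taldo1) in at least 1 such fit. At an adjusted p under 0.01, a stricter threshold by construction, vanillin against IMQ gave 4 higher and 2 lower, and vanillin against Mock 2 lower. Array weights gave 9 lower for vanillin against IMQ and medians of 0.14 and 0.26 for vanillin against IMQ and against Mock, and the cause was not tested. With only both groups in the fit 2 were lower for vanillin against Mock, and the cause was not tested. For this comparison that fit has fewer arrays and leaves out the IMQ arrays, whose median probe SD was the lowest (0.0792). In that fit Pfkp lost its call for vanillin against IMQ (adjusted p = 0.0573), and Pfkfb3 (0.0760) and Taldo1 (0.115) theirs for vanillin against Mock. The mean of a gene's probes turned Ndrg1 for vanillin against IMQ to 0.02 (adjusted p = 0.873) and Hif1a for vanillin against Mock to 0.32 (adjusted p = 0.0285), since their probes disagree, and brought Egln1 to -0.65 and Hk1 to 0.36 for IMQ against Mock. A replicate block, for which a pairing of the numbers was not established, gave 10 higher and 6 lower, 6 and 3, and 11 and 3, in the order of comparisons above. Quantile normalization and centring on medians left these counts and medians as they were. Shares of all genes called were taken from the main fit only, so counts under the alternatives have none beside them. A change of sign was counted only where the gene was called under at least one of the settings compared. Slc16a3 gained a call for vanillin against IMQ under array weights, without dim probes, with the mean of probes, an offset or only both groups fitted, and Car9 under array weights, an intensity trend, without dim probes or with an offset. Dim probes (Pfkl, Pfkp, Pdk1, Slc16a1 and Bnip3 lie below the median intensity) limit what could be seen, and the files used hold no background reading.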

Other observations

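Entry of pyruvate into mitochondria was read from 13 genes, of which 12 were measured. For vanillin against IMQ 6 were called higher, 2 lower and 4 not (median 0.35), beside 26.2% and 16.6% of all genes. For vanillin against Mock 2 were higher, 1 lower and 9 not (median -0.09), beside 13.4% and 15.9%. For IMQ against Mock 2 were higher, 5 lower and 5 not (median -0.26), beside 24.3% and 31.6%. Dlat, a core subunit of pyruvate dehydrogenase, changed by -0.82 ± 0.08 for IMQ against Mock (SE, adjusted p = 5.76e-05) and by 0.60 ± 0.08 for vanillin against IMQ (adjusted p = 0.00140). The kinase Pdk3 changed by -0.68 ± 0.11 and 0.41 ± 0.11 in the same comparisons, and Pdpr, a regulator of the phosphatase, by -0.83 ± 0.11 and 0.29 ± 0.11, the last not called. The phosphatase Pdp2, which activates the complex, went the other way, at 0.45 ± 0.09 for IMQ against Mock (adjusted p = 0.00236) and -0.64 ± 0.09 for vanillin against IMQ (adjusted p = 0.00158). Pdha1, Dlat, Pdk2 and Pdk3 were called lower in IMQ against Mock and higher in vanillin against IMQ, comparisons that share the IMQ arrays. Dld was called the opposite way, as Pdp2 was, at 0.82 ± 0.15 (adjusted p = 0.00201) and -0.74 ± 0.15 (adjusted p = 0.00637). Muscle markers had medians of -0.42 and 0.48 in these comparisons, and adipocyte markers -0.66 and 0.31. The part of either cell type was not tested.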
